A study of Mus musculus with 6 samples.

Results

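The genes of the cytosolic ribosomal proteins were followed in fetal mouse hearts after maternal inhalation of titanium dioxide nanoparticles. They were taken as the protein-coding genes of the GENCODE M21 annotation whose symbols begin with Rpl or Rps and continue with a number, the stalk letters or the a of Rpsa. The S6 kinases and names that mark pseudogenes were left out. This naming rule gave 81 genes out of 35458 genes with Salmon estimates, 50 of the large and 31 of the small subunit. Members were chosen by name and not by any measured value, though with earlier results of these data known. The libraries were 3 from pooled hearts of fetuses whose dams inhaled nano-TiO2 and 3 from pooled hearts of fetuses whose dams breathed filtered air (sham). All mice were FVB/NJ, an inbred strain, of WT genotype, the dams were 10 weeks old, and male and female fetuses were pooled. Whole-body exposure began on gestational day 5 at a target of 12 mg/m3 for 360 minutes a day, on 6 days within a window of 8 days, and hearts were taken on gestational day 15. The libraries were the antibody-free inputs of an m6A study, made from fragmented total RNA. The litters behind each pool are not given, so the tests gauge the variation from pool to pool and no more, and fewer cells of a type and less RNA per cell cannot be told apart in such bulk samples.

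A ribosome joins a small subunit, which reads the mRNA, to a large subunit, which forms the peptide bonds, and each ribosomal protein is present in it once except for the proteins of the stalk. Their mRNAs are short and abundant, and most begin with a 5′ terminal oligopyrimidine (TOP) tract, a C followed by pyrimidines, through which mTORC1 and the RNA-binding protein LARP1 control their translation and stability. Growing tissue such as the fetal heart makes ribosomes at a high rate.

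The start sites are shown because the TOP tract is the sequence feature that most of these genes are known to share. RefSeq promoter windows (GRCm38.p6, 250 bases before to 50 after the start) were held for 61 of the 81 genes. A run of at least 5 pyrimidines beginning with C lay within 10 bases of the start in 38 of these 61 genes (62.3%), against 34.4% of 27025 genes. C itself was the start base in at least 1 window of 19 genes (31.1%), against 18.9% of all genes. The 7-letter motif CTTCCGG, of the kind bound by ETS factors, or its reverse complement occurred in 25 of 61 genes (41.0%), against 9.93% of all genes. The motif AAGATGG, of the kind bound by YY1, or its reverse complement occurred in 9 of 61 (14.8%), against 7.28%. The lines below give 10 bases before the start, the start base and the bases after it, 5′ to 3′ on the gene's strand, with the pyrimidine run in capitals where there was one. The 5 genes with the most negative fold change among those with a window come before the 5 with the least negative.
Rpl39: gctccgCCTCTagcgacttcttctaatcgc
Rpl41: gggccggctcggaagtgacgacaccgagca
Rps27l: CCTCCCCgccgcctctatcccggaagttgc
Rpl35: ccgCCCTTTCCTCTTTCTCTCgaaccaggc
Rpl38: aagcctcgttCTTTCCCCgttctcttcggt
Rps2: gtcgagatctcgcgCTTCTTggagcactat
Rps6: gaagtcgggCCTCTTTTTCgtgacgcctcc
Rpl4: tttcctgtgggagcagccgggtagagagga
Rpl5: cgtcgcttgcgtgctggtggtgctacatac
Rpl3l: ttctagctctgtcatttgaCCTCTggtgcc
These lie at chrX:37085203-37085232 (minus strand), chr10:128549149-128549178 (minus), chr9:66946076-66946105 (plus), chr2:39005112-39005141 (minus), chr11:114668570-114668599 (plus), chr17:24720053-24720082 (plus), chr4:86857348-86857377 (minus), chr9:64173377-64173406 (plus), chr5:107900518-107900547 (plus) and chr17:24727816-24727845 (plus), in the order of the lines. A run was present in 4 of the 5 genes of the upper lines and in 3 of the 5 of the lower lines, which were picked by their fold changes. The run of Rps27l ended before the start base, and those of Rps2 and Rpl3l began after it. Rps27l and Rpl3l had 2 windows each, and a window with a run was preferred for printing. The run of Rpl35 was the longest of the printed ones, with 18 bases.

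Salmon assigned 12881945 to 21553478 estimated reads to the nano-TiO2 libraries and 17152365 to 22720009 to the sham libraries. Heart identity was checked with 11 cardiomyocyte markers, all of them detected, whose summed level was 36111 to 47787 CPM (library-scaled counts, with factors from the TMM method) in nano-TiO2 hearts and 51793 to 61118 CPM in sham hearts. The summed level of 12 erythroid markers was 45586 to 93381 CPM in nano-TiO2 hearts and 121072 to 300228 CPM in sham hearts, with no marker at 0. Of these markers, 7 erythroid and 5 cardiomyocyte genes were called lower and 1 cardiomyocyte gene higher. Among the other cell types of the heart, 2 of 6 endothelial, 1 of 6 fibroblast, 1 of 4 epicardial and 1 of 6 macrophage markers were called higher and none lower. Hepatocyte markers, 8 genes with none at 0, summed to 8.44 to 39.5 CPM in nano-TiO2 hearts and 29.6 to 1083 CPM in sham hearts, the highest in sham 2. Lung epithelium markers, 5 genes with none at 0, summed to 0.304 to 1465 CPM in nano-TiO2 hearts, the highest in nano-TiO2 3, and 13.7 to 138 CPM in sham hearts. The part of these other tissues in the results below was not tested.

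Relative to the median gene, ribosomal protein mRNAs were lower in nano-TiO2 hearts as a group. The test was edgeR's quasi-likelihood test, fitted to all 13930 genes that passed a filter on low counts, with a Benjamini-Hochberg adjusted p under 0.05 as the threshold. Of the 79 members tested, 73 fell, none rose and 6 did not pass. Over all genes tested, 12.8% were called lower and 15.5% higher. The median log2 fold change of the 79 members was -0.73, or 0.602-fold, against -0.01 over all genes tested. Every nano-TiO2 library was under every sham library in 76 of the 79 members, against 22.4% of all genes. The other 3 members, Rpl4, Rpl5 and Rpl3l, overlapped. The 2 members that were not tested were Rpl39l, with 0 to 8 estimated reads per library, and Rpl10l, listed at 0 in every library; both are known for expression in testis. The calls depend on the scale, since no member was called lower on TPM without TMM factors and 14 were by library totals. The median of members stayed under that of all genes on both. With counts rebuilt from TPM and scaled with TMM factors, 70 of 79 members fell, where 7.49% of all genes were called lower. The calls depend on transcript length and GC content also: with those trends removed 8 members fell and the median was -0.17.

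**Figure D1:**
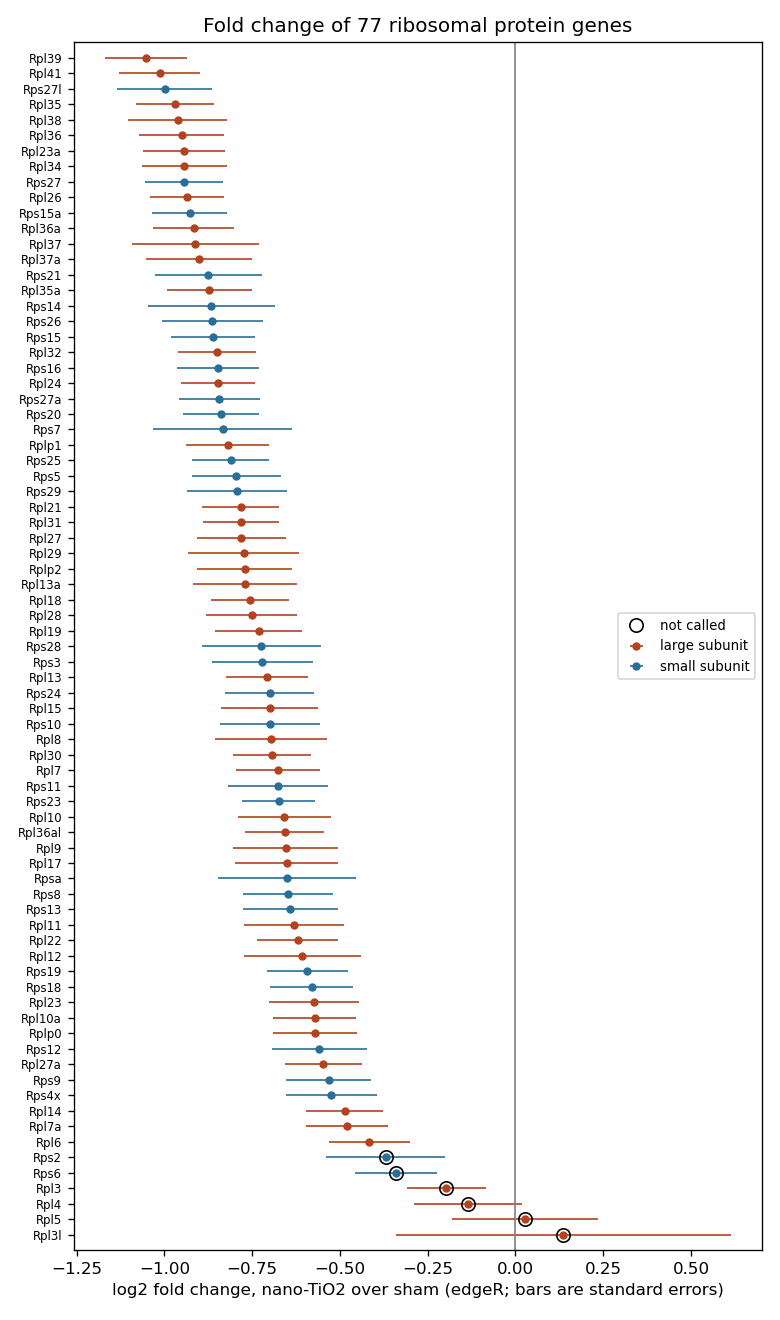
Log2 fold change (nano-TiO2 over sham, horizontal axis) of 77 of the 79 tested ribosomal protein genes, 1 per line, with the standard error as a bar and circles around the 6 genes not called. The points run from -1.05 for Rpl39 to 0.14 for Rpl3l, and all points without a circle lie under 0.

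The largest falls were in Rpl39, Rpl41 and Rps27l. Rpl39, whose short basic protein lines the exit tunnel of the large subunit, had 116, 103 and 96.2 CPM in nano-TiO2 hearts and 223, 216 and 214 CPM in sham hearts. All 3 nano-TiO2 libraries lay far under the closely grouped sham libraries. Its log2 fold change was -1.05 ± 0.12 (SE, edgeR adjusted p = 0.0063). Rpl41, which encodes the shortest protein of the large subunit, had 690, 601 and 616 CPM in nano-TiO2 hearts and 1295, 1298 and 1258 CPM in sham hearts. The groups did not overlap, and the log2 fold change was -1.01 ± 0.12 (edgeR adjusted p = 0.0063). Rps27l, a near copy of the zinc-finger protein gene Rps27, had 223, 196 and 210 CPM in nano-TiO2 hearts and 389, 381 and 488 CPM in sham hearts. Its sham libraries varied more, with sham 3 the highest, and all were above the nano-TiO2 libraries. The mean level was 210 ± 13.2 CPM in nano-TiO2 hearts and 419 ± 59.5 CPM in sham hearts (SD, n = 3 each; edgeR adjusted p = 0.0063).

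The next falls were in Rpl35, Rpl38, Rpl36, Rpl23a, Rpl34, Rps27 and Rpl26, with log2 fold changes between -0.97 and -0.94. Rpl35, Rpl23a and Rpl26 encode proteins around the exit of the nascent peptide tunnel. Rpl35 had 565, 564 and 562 CPM in nano-TiO2 hearts and 1082, 1057 and 1175 CPM in sham hearts. Rpl26 had 272, 274 and 273 CPM in nano-TiO2 hearts and 507, 522 and 538 CPM in sham hearts. In both genes the nano-TiO2 libraries were almost equal to each other, and the sham libraries were all higher. Rpl38, known in the mouse for its role in patterning of the skeleton, had 123, 128 and 114 CPM in nano-TiO2 hearts and 264, 252 and 196 CPM in sham hearts. Its sham 3 library was lower than the other sham libraries, and the log2 fold change was -0.96 ± 0.14 (edgeR adjusted p = 0.00672).

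**Figure D2:**
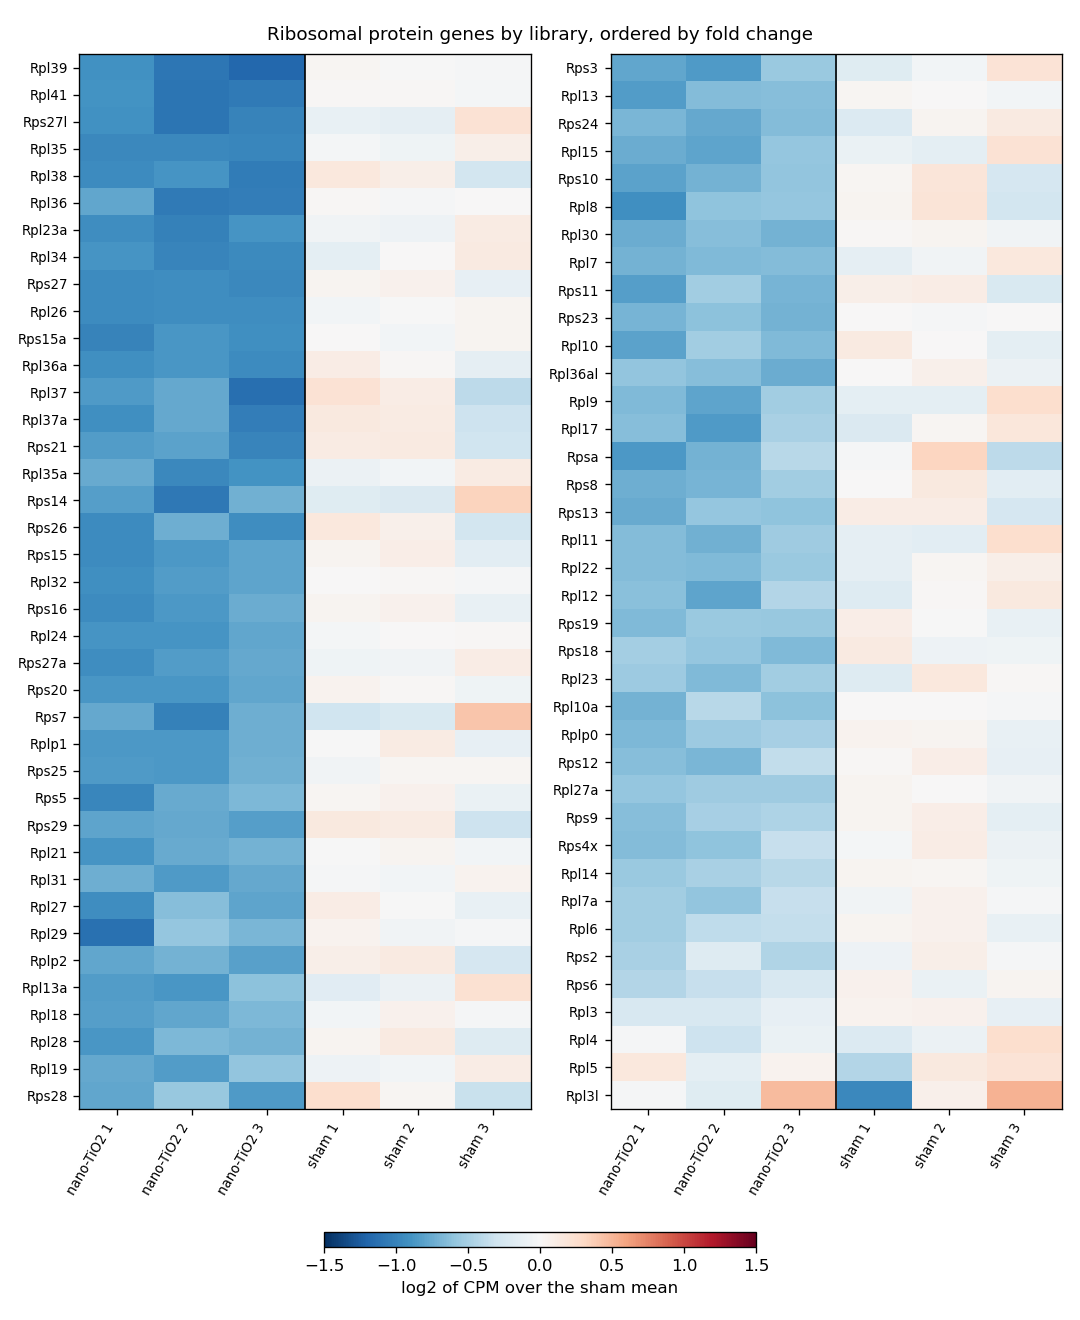
Level of 77 of the 79 tested genes in each library as log2 of CPM over the sham mean (blue lower, red higher), with the nano-TiO2 libraries left of the sham libraries and genes ordered from the most negative fold change (upper left) to the least (lower right). The nano-TiO2 columns are blue for nearly all genes, and Rpl4, Rpl5 and Rpl3l, whose groups overlapped, stand at the lower right.

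Among the most abundant members per length were Rpl32, Rpl13a, Rpl41, Rpl13 and Rps14. On the TPM scale, which divides by effective length, the level of Rpl32 averaged 2828 ± 403 TPM in nano-TiO2 hearts and 3219 ± 430 TPM in sham hearts (SD, n = 3 each). Rpl13a, Rpl41, Rpl13 and Rps14, whose spreads over libraries overlapped, averaged 2535, 2364, 2220 and 2120 TPM over all libraries. Levels ran down through a median of 575 TPM over the 81 genes, with 16 genes over 1000 TPM, to 0.926 TPM for Rpl3l among tested genes. Rpl13a, also known in human cells as a part of a complex that silences inflammatory mRNAs, had 769, 747 and 894 CPM in nano-TiO2 hearts and 1216, 1287 and 1611 CPM in sham hearts. The groups did not overlap, and its log2 fold change was -0.77 ± 0.15 (edgeR adjusted p = 0.0106).

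Of the named functional groups, the stalk, which recruits elongation factors to the large subunit, fell in all 3 of its genes. Rplp0, its base, had 1225, 1336 and 1387 CPM in nano-TiO2 hearts and 2031, 2016 and 1814 CPM in sham hearts, with a log2 fold change of -0.57 ± 0.12 (edgeR adjusted p = 0.013). Rplp1 and Rplp2, the acidic proteins that dimerize on it, had log2 fold changes of -0.82 ± 0.12 and -0.77 ± 0.13. In all 3 stalk genes every nano-TiO2 library was under every sham library, as in 76 of the 79 members and 22.4% of all genes. In the same fit 73 of the 79 members and 12.8% of all genes were called lower. With length and GC trends removed no stalk gene was called, and Rplp1 and Rplp2 had 0.14 and 0.05. Among 9 genes mutated in human Diamond-Blackfan anaemia, a failure of red cell production, 8 fell and Rpl5 did not pass, with a median of -0.70. Rps19, the gene most often mutated in that disease, had 618, 664 and 655 CPM in nano-TiO2 hearts and 1047, 971 and 904 CPM in sham hearts (log2 fold change -0.59 ± 0.12, edgeR adjusted p = 0.0111). Rpl35a had a log2 fold change of -0.87 ± 0.12. Rps7 had 266, 222 and 270 CPM in nano-TiO2 hearts and 367, 386 and 599 CPM in sham hearts, where sham 3 stood above the other libraries. Rps24, Rps10 and Rps26 fell by 0.70, 0.70 and 0.86 on the log2 scale. With length and GC trends removed 1 of these 9 genes, Rpl35a, was called, and Rps19, Rpl11 and Rps10 had 0.27, 0.10 and 0.17.

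Rps27a, which encodes ubiquitin fused to a small subunit protein, had 371, 394 and 415 CPM in nano-TiO2 hearts and 676, 679 and 762 CPM in sham hearts. The groups did not overlap, and the log2 fold change was -0.84 ± 0.12 (edgeR adjusted p = 0.0063). Rpsa, whose product is also known as the laminin receptor, had 371, 412 and 504 CPM in nano-TiO2 hearts and 666, 839 and 513 CPM in sham hearts. Its sham 3 library lay just above nano-TiO2 3, and its log2 fold change of -0.65 ± 0.20 had the highest adjusted p among the called members (edgeR, 0.0401). Rpl11, which binds 5S rRNA with Rpl5 and can inhibit Mdm2 when ribosome assembly is disturbed, had 243, 233 and 266 CPM in nano-TiO2 hearts and 349, 345 and 456 CPM in sham hearts. Its log2 fold change was -0.63 ± 0.14 (edgeR adjusted p = 0.0164).

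The 6 members that did not pass the test were Rps2, Rps6, Rpl3, Rpl4, Rpl5 and Rpl3l. Rps6, the substrate of the S6 kinases, had 529, 569 and 608 CPM in nano-TiO2 hearts and 750, 671 and 739 CPM in sham hearts. The groups did not overlap, and the log2 fold change of -0.34 ± 0.12 had an edgeR adjusted p of 0.0598. Rpl4, which lines the constriction of the exit tunnel, had 845, 687 and 796 CPM in nano-TiO2 hearts and 740, 804 and 1012 CPM in sham hearts. The groups overlapped, and the log2 fold change was -0.14 ± 0.15 (edgeR adjusted p = 0.538). Rpl3, which reaches the peptidyl transferase centre, had 159, 159 and 172 CPM in nano-TiO2 hearts and 194, 195 and 172 CPM in sham hearts (log2 fold change -0.20 ± 0.11, edgeR adjusted p = 0.216). Sham 3 was almost equal to nano-TiO2 3.

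The levels of some members depended on how reads were divided among near-identical copies. Ribosomal protein genes have many processed pseudogenes, and 1183 copies with at least 90% identity over at least 150 aligned bases were found in the annotation. Per library, a mean of 618755 estimated reads lay on the members and 134714 on copies. For 47 members over 95% of the reads of gene and copies lay on the gene itself, and for 14 members under 60% did. Rps2, which sits near the mRNA entry of the small subunit, held 0.539% of these reads, a mean of 221 reads per library against 40764 on 64 copies, nearly all of them on Rps2-ps10. Rpl5 held 2.74%, with 325 reads per library against 11510 on 12 copies. The Salmon levels of Rps2, Rpl5 and Rpl12 on their own are therefore uncertain, as are those of all members with under 60% of these reads. Many reads also lay on single copies of Rpl3 (Rpl3-ps1, a mean of 7019 per library) and of Rps7 (Gm6472, 8845).

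**Figure D3:**
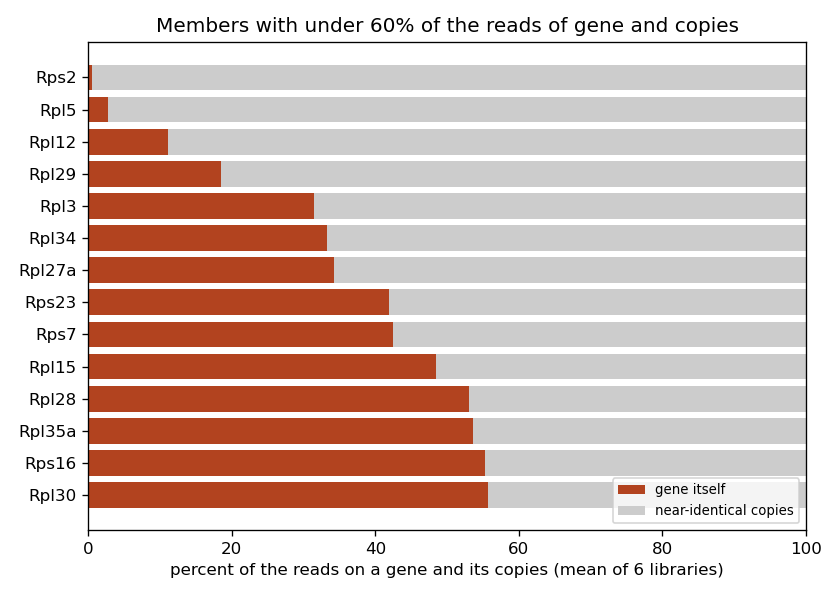
Percent of estimated reads (mean of 6 libraries) on the gene itself and on its near-identical copies, for the 14 tested genes with under 60% on the gene. Rps2 holds 0.539% and Rpl5 2.74%, while Rpl30 holds 55.7%.

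With the reads of copies added to their gene, 75 of 79 members fell, none rose, and 12.8% of all genes were called lower in that fit. Rps2 with its copies had 1701, 1844 and 1901 CPM in nano-TiO2 hearts and 2714, 2917 and 2342 CPM in sham hearts. The groups did not overlap, and the log2 fold change was -0.55 ± 0.13 (edgeR adjusted p = 0.0188), against -0.37 ± 0.17 (0.135) for the gene alone. Rps6 with its copies also passed, with -0.37 ± 0.11 (edgeR adjusted p = 0.0361). Rpl5 with its copies had 576, 478 and 598 CPM in nano-TiO2 hearts and 583, 688 and 910 CPM in sham hearts. The groups overlapped, since sham 1 lay under nano-TiO2 3, and the log2 fold change was -0.40 ± 0.18 (edgeR adjusted p = 0.126), against 0.03 ± 0.21 for the gene alone. Rpl3, Rpl4 and Rpl3l were the other members not called.

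Genes of both subunits fell. Of 48 tested large subunit genes 44 fell, with a median log2 fold change of -0.74. Of 31 small subunit genes 29 fell, with a median of -0.72, and 12.8% of all genes were called lower. Members together took 2.67%, 3.13% and 2.99% of all estimated reads in nano-TiO2 libraries and 3.90%, 3.32% and 3.68% in sham libraries. Every nano-TiO2 library was under every sham library, with means of 2.93% ± 0.239 and 3.63% ± 0.294 (SD, n = 3 each; exact two-sided permutation p = 0.1, the smallest that 3 against 3 can give). Without haemoglobin and mitochondrial genes the share was 3.27% ± 0.190 in nano-TiO2 and 4.45% ± 0.141 in sham libraries, a difference of -1.17 percentage points against -0.70. In the series read table the groups overlapped, with 1.95%, 2.36% and 2.19% in nano-TiO2 libraries and 2.72%, 2.16% and 2.63% in sham libraries (exact two-sided permutation p = 0.3). As a share of TPM the groups overlapped, with 5.13%, 6.63% and 5.66% in nano-TiO2 libraries and 6.99%, 5.33% and 6.45% in sham libraries (exact two-sided permutation p = 0.5). The summed TPM of the large subunit over that of the small subunit was 1.76, 1.74 and 1.71 in nano-TiO2 hearts and 1.76, 1.75 and 1.79 in sham hearts. The difference on the log2 scale was -0.03 (exact two-sided permutation p = 0.2), and the groups overlapped. With the median TPM of each subunit in place of the sum, the log2 ratio was -0.03, -0.07 and 0.14 in nano-TiO2 hearts and -0.21, -0.30 and -0.10 in sham hearts. These did not overlap, and the difference of 0.22 had the other sign (exact two-sided permutation p = 0.1). With copies summed, the difference of the summed TPM was -0.03 without overlap (p = 0.1 by the same exact test).

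**Figure D4:**
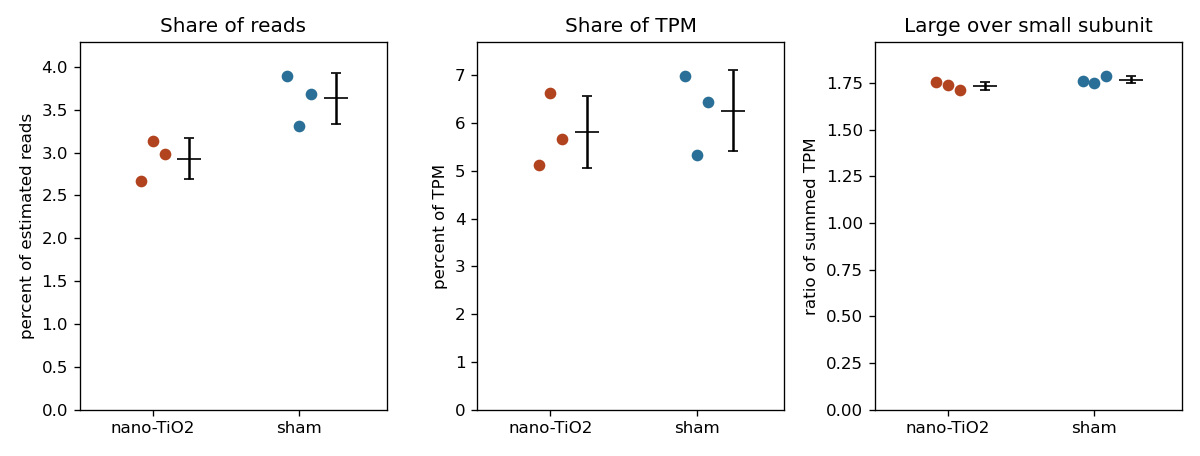
Share of estimated reads (left panel, percent), share of TPM (middle panel, percent) and summed TPM of the large over the small subunit (right panel) in each library, with nano-TiO2 left of sham, points for libraries, and mean and SD beside them. The read share averages 2.93% in nano-TiO2 and 3.63% in sham libraries without overlap, while the TPM share and the ratio overlap.

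Fold changes followed transcript length, in all genes and within the family. Length here is the Salmon transcript length, weighted by reads. The tested members had lengths of 349 to 1945 bases with a median of 704, against a median of 2723 over all genes tested. In the length quintile with the shortest transcripts, up to 1520 bases, the 75 members had a median log2 fold change of -0.75 and 71 fell. The 2711 other genes of that quintile had a median of -0.44, and 32.7% of them were called lower. In the quintile with the longest transcripts, from 4474 bases, which held no member, the median was 0.68 and 1.76% were called lower. The median of members was thus under that of the other short genes, which were not matched to members in length within the quintile. This difference was not tested.

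**Figure D5:**
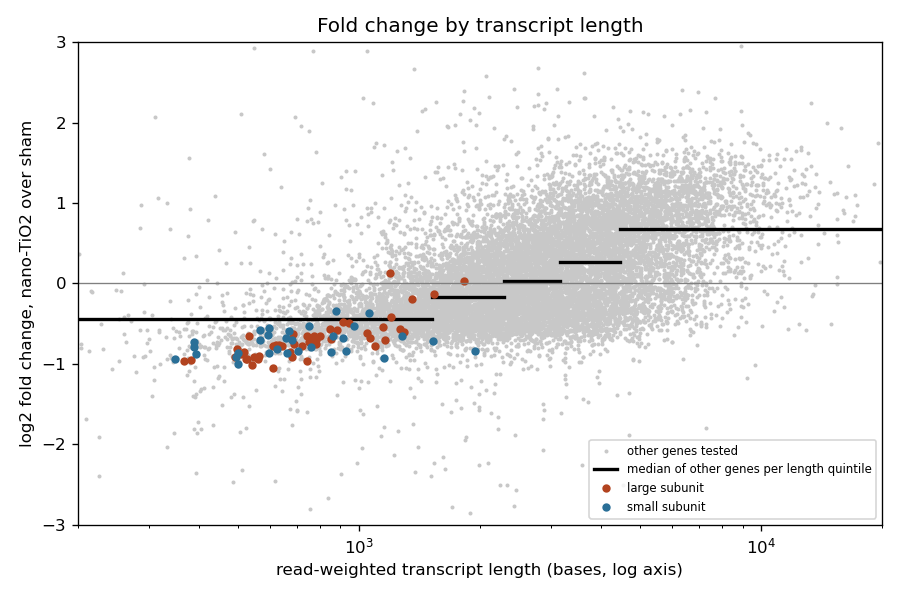
Log2 fold change (nano-TiO2 over sham, vertical axis) against read-weighted transcript length (bases, log axis) for ribosomal protein genes (coloured by subunit) and other genes tested (grey), with black lines for the median of other genes in each length quintile; a few points lie beyond the axes. The lines climb from -0.44 in the shortest to 0.68 in the longest quintile, and most ribosomal protein genes lie under the line of their quintile.

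Within the family, fold changes tended to be more negative in shorter transcripts, mainly in the large subunit. Across the 79 members, which share libraries and are no independent replicates, the correlation of log2 fold change with log2 length was r = 0.62 (Spearman 0.64). It was 0.80 across the 48 large subunit genes and 0.28 across the 31 small subunit genes. Rps20 and Rps15a, with lengths of 1945 and 1154 bases, lay under this relation, with log2 fold changes of -0.84 ± 0.11 and -0.93 ± 0.11. Rps20 and Rps15a were chosen for mention after their values were seen.

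Among short genes, the fold changes of members varied little with base composition. In the quintile of the shortest transcripts, other genes with 44.8% to 48.8% GC had a median log2 fold change of -0.32 and 19.0% of 416 were called lower. The 14 members in that range had a median of -0.76 and all 14 fell. In the range of 56.1% to 72.8% GC, other genes had a median of -0.56 with 47.8% called lower, and the 14 members there had a median of -0.76 with 13 called. The correlation of log2 fold change with GC content across members was r = -0.09, with -0.27 in the large and 0.32 in the small subunit.

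After removal of the trends over length and GC content from each library, 8 members fell (Rpl22, Rpl35a, Rpl39, Rpl7, Rps15a, Rps20, Rps27l and Rps3) and none rose, where 1.18% of all genes were called lower. The median over members was then -0.17, against -0.02 over all genes. Across the 79 members these fold changes correlated with GC content at r = 0.79, against -0.09 before the removal. The correlation was 0.74 in the large and 0.87 in the small subunit, so the order of members after the removal followed GC content. Rpl39 had a log2 fold change of -0.76 ± 0.13 (edgeR adjusted p = 0.0388) and Rps27l of -0.79 ± 0.13 (0.0333), while Rpl41 had -0.13 and Rpl35 -0.14. On the TPM scale every nano-TiO2 library was under every sham library in 1 of 78 members, Rpl41, against 0.318% of all genes, and over it in 3, Rpl3, Rpl4 and Rpl5, against 47.2%. No member was called lower and 2, Rpl4 and Rpl5, were called higher by limma on log2(TPM + 1), where 38.0% of all genes were called higher and 0.134% lower. The Rpl5 result rests on the few reads assigned to the gene itself, while its copy Gm15500 held a mean of 11503 per library. Rpl3 also shared reads with a copy, Rpl3-ps1, which held a mean of 7019. The level of Rpl4 was 643, 656 and 623 TPM in nano-TiO2 hearts and 434, 359 and 557 TPM in sham hearts, a log2(TPM + 1) difference of 0.53 ± 0.21 (limma adjusted p = 0.0419). The median gene differed by 0.47 on that scale and the members by -0.07, so members stood 0.55 under the median gene there also. By library totals only, without scaling on the typical gene, 14 members fell, where 0.359% of all genes were called lower, and the median of all genes was 0.41.

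Paralogs were compared within each library on the TPM scale. Of 8 pairs, 6 had both genes above 0 in every library. Rpl7l1, a relative of Rpl7, was closer in level to Rpl7 in nano-TiO2 hearts, with log2 ratios (pseudocount 0.1 TPM) of -2.98, -3.01 and -3.09, against -3.35, -3.50 and -3.49 in sham hearts. The groups did not overlap, and the difference was 0.42 (exact two-sided permutation p = 0.1, 0.3 adjusted over 6 pairs). Rpl7l1 and Rpl7 had read-weighted lengths of 2461 and 1064 bases, and the part of length in this difference was not tested. Rpl36al over Rpl36a had log2 ratios of -0.29, -0.38 and -0.40 in nano-TiO2 hearts and -0.75, -0.56 and -0.61 in sham hearts, without overlap (difference 0.28, exact two-sided permutation p = 0.1, 0.3 adjusted). No pair can pass the threshold with 3 against 3. The differences of Rps27l over Rps27, Rps4l over Rps4x and Rpl22l1 over Rpl22 were -0.08, -0.04 and 0.07, with overlapping groups. Rps4l is not a member, since GENCODE M21 does not class it as protein-coding. How reads were divided between Rps4l and Rps4x was not tested. Rpl3l, the form typical of striated muscle, was at 0.844, 1.12 and 1.48 TPM in nano-TiO2 hearts and 0.338, 0.698 and 1.07 TPM in sham hearts, far under Rpl3 with 140, 174 and 156 TPM in nano-TiO2 hearts and 134, 102 and 108 TPM in sham hearts. Rpl3l had 10 to 31 estimated reads per library, and at this depth no difference was detectable (log2 fold change 0.14 ± 0.48).

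The read table of the whole series, a separate count of the same libraries, gave similar fold changes when all bins were summed. Its bins, turned back into whole reads and summed per gene, were tested in the same way over 18850 genes. There 72 of 79 members fell and none rose, where 11.2% of all genes were called lower, and 71 of these were also called from the Salmon estimates. The median over members was -0.69, against -0.01 over all genes. The 7 not called were Rps6, Rpl6, Rpl4, Rpsa, Rpl3, Rpl5 and Rpl3l, and Rps2 fell by 0.49 on the log2 scale (edgeR adjusted p = 0.0206). On the authors' scaling, all nano-TiO2 libraries were under all sham libraries in 1616 of 2019 bins with a mean of at least 10 (80.0%), spread over 78 members, against 23.0% of all such bins. When only these bins were summed per gene, 26 of 78 members fell and the median was -0.38, where 1.80% of all genes were called lower. In 22 members this held for every bin, and Rpl4, with 1 of 52 bins, Rpl5, with 5 of 41, and Rpl3, with 8 of 51, had the smallest shares.

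Genes that work with these proteins were counted from lists chosen by role, against 12.8% of all genes called lower and 15.5% called higher. By library totals the all-gene shares were 0.359% lower and 30.7% higher, with a median of 0.41. They were 0.134% and 38.0% on log2(TPM + 1), and 1.18% and 0.395% with trends removed. Of 6 genes of ribosomal proteins or their relatives outside the naming rule, 5 fell, with a median of -0.67. Among them were Fau, which encodes a fusion with a ubiquitin-like sequence, Rps3a1, Rack1 and Rpl22l1, while Rpl7l1 had -0.06 ± 0.12 (edgeR adjusted p = 0.759). None of the 6 was called lower by library totals, on log2(TPM + 1) or with trends removed. Fau had 227, 266 and 257 CPM in nano-TiO2 hearts and 442, 416 and 375 CPM in sham hearts, a log2 fold change of -0.72 ± 0.12 (edgeR adjusted p = 0.00847). Of 20 genes listed for translation factors and other proteins of TOP mRNAs, 6 fell, 2 rose and 12 did not pass, with a median of -0.38. Btf3 and Naca, which are not translation factors, were among the 6. Eef1d, an exchange factor of elongation factor 1, and Eif3k, a small subunit of initiation factor 3, had -0.66 ± 0.14 and -0.60 ± 0.11, while Eif3a, its largest subunit with a length of 4973 bases, had 1.04 ± 0.19. By library totals 0 fell and 6 rose with a median of 0.04, on log2(TPM + 1) 0 fell and 8 rose, and with trends removed none was called.

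Of 30 ribosome biogenesis genes, 7 fell and 5 rose, against 12.8% and 15.5% of all genes, with a median of -0.16. Nop10 and Nhp2, parts of the pseudouridylation particle, had -0.87 ± 0.11 and -0.68 ± 0.14, and the helicase gene Ddx21 had 0.76 ± 0.17. By library totals 1 of the 30 fell and 9 rose with a median of 0.25, and on log2(TPM + 1) 0 fell and 12 rose. With trends removed 4 fell, Nop10 among them. Of all genes, 30.7% were called higher by library totals and 38.0% on log2(TPM + 1), and 1.18% lower with trends removed. Of 17 RNA polymerase I genes 8 fell and none rose, with a median of -0.34. The shared subunits Polr2k and Polr2l had -0.85 ± 0.14 and -0.69 ± 0.14, and Polr2f, Polr2e, Polr2h, Polr1d, Znrd1 and Taf1c were also called. Polr1a, Polr1b, Polr1e, Ubtf and Rrn3 were among those not called. By library totals 0 fell and 1 rose with a median of 0.09, on log2(TPM + 1) 0 fell and 2 rose, and with trends removed 1 fell. Of 19 regulators of TOP mRNAs and mTORC1, 3 fell and 1 rose, with a median of -0.05. Akt1s1 and Eif4ebp1, inhibitors downstream of Akt and mTORC1, had -0.73 ± 0.11 and -0.58 ± 0.11, and Pdcd4, a translation inhibitor, had 1.02 ± 0.20. By library totals 0 fell and 6 rose with a median of 0.37, on log2(TPM + 1) 0 fell and 8 rose, and with trends removed 1 fell. Of 9 tested S6 kinase genes none fell and 1, Rps6ka5, rose, with 8.26, 5.06 and 5.71 CPM in nano-TiO2 hearts and 2.98, 3.37 and 2.70 CPM in sham hearts (log2 fold change 1.07 ± 0.27, edgeR adjusted p = 0.0221). With trends removed Rps6ka5 had 0.28 and was not called (edgeR adjusted p = 0.552).

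The count of members that fell was 48 to 72 when 1 library was left out. It was 48 when nano-TiO2 1 was dropped, in a fit that called 3.04% of all genes lower. Dropping sham 2 gave 50 (2.93% of all genes), dropping sham 1 gave 52 (3.92%) and dropping sham 3 gave 72 (8.00%). With both nano-TiO2 3 and sham 2 left out, the libraries with the most lung and liver marker reads, edgeR called no gene at all, with 3350 genes under an unadjusted p of 0.05. Of the 79 members, 71 were then under an unadjusted p of 0.05, all lower, and the median was -0.72.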

How the data were processed

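The estimated counts per transcript were made by the authors with Salmon and deposited unscaled, per the file headers. The TPM values and the transcript lengths beside them were deposited by the authors in the same files. The series table holds a signal per bin of each gene, reads multiplied by the authors by 1 factor per library, and dividing by that factor gave whole numbers for 100% of bins (tolerance 0.001). Salmon 1.5.2, DESeq2 1.34.0 and HISAT2 2.2.1 appear in the submitters' processing notes, with no roles. The strand setting and the index annotation were not found in those sources. Of 116747 transcripts, 115685 matched GENCODE M21 by ID.

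Estimated reads were summed per gene, rounded and tested with edgeR 4.0.16 (quasi-likelihood, robust, TMM, filterByExpr, group as the only term) over all genes. All adjusted p-values of genes are Benjamini-Hochberg values from edgeR unless limma 3.58.1 is named. The biological coefficient of variation was 23.9%. Values of 1 number per library were tested by exact permutation. Copies (at least 90% identity over 150 aligned bases) were found with BLAST 2.17.0. Trends over length and GC content were removed with mgcv 1.9.3. Within each group the counts of any pair of libraries varied beyond sampling noise, so all 6 stayed separate.

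Members and lists were chosen with earlier results of these data known. Named were the 6 members with the highest TPM, the 10 most and 6 least negative fold changes, those not tested, and genes of set roles and paralog pairs. Alternatives were other scalings, tools, filters and transcript classes, TPM, a replicate block, trend removal and left-out libraries. Summing copies was added after seeing the data. Values of 2 members and of 1 further gene are not reported here, though counts and medians include them.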

Additional observations from a re-analysis of the deposited data

How the results depend on the processing

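Of the tested members 73 fell with RLE factors, limma-voom, no filter, the stricter filter or TMM factors without these genes. In these fits 13.2%, 12.9%, 6.91%, 13.6% and 13.1% of all genes were called lower, in that order. With DESeq2 74 of 80 fell (15.9% of all genes). With upper-quartile factors 71 fell (9.41% of all genes), and the median was -0.67. By library totals the count was 14, against 0.359% of all genes called lower, and the median was -0.32. On log2(TPM + 1) or log2(TPM + 0.1), 0 fell and 2 rose, with medians of -0.0722 and -0.0723, and without a filter 0 fell with a median of -0.067. With length-scaled counts made from TPM and scaled with TMM factors, 70 of 79 fell (7.49% of all genes), and the median was -0.70. With length and GC trends removed, 8 fell (1.18% of all genes) and the median was -0.17. The correlation was then -0.16 with length and 0.79 with GC content. The replicate numbers do not pair the libraries (correlations of deviations -0.39, 0.02 and -0.08). With the numbers as a replicate block 65 members fell, and over all genes 795 fell and 1262 rose, against 1781 and 2154. With block and trend removal together 2 fell (0.273% of all genes), with a median of -0.16 and a correlation of -0.16. Leaving out 1 library gave 48 (without nano-TiO2 1) to 72 members, medians of -0.78 to -0.68 and correlations of 0.54 to 0.63. Without sham 2 and nano-TiO2 3, 0 members passed and the correlation was 0.53. With copies summed and trends removed, 10 fell (1.24% of all genes), with a median of -0.18 and a correlation of -0.18. The series table gave a median of -0.69, 26 calls from bins with a mean of at least 10, and a read share that differed by -0.34 percentage points. Without haemoglobin and mitochondrial genes the share differed by -1.17 points. The log2 ratio of large to small subunit was 0.22 with median TPM, 8.4e-05 with summed reads and 0.0043 in the series table. Relative to the median gene, these log2 fold changes changed sign. With DESeq2: Rpl5 -0.0255; with no filter: Rpl5 -0.0244; on log2(TPM + 1): Rpl4 0.0561, and unfiltered Rps6 0.12, Rpl4 0.33, Rpl3 0.25, Rps2 0.11. With trends removed they were Rpl13a 0.0901, Rpl13 0.0862, Rps19 0.29, Rpl36 0.0783, Rplp2 0.0656, Rplp1 0.16, Rpl11 0.12, Rps10 0.19, Rpl3 0.0812, Rps2 0.27, Rpl5 -0.19. With the replicate block as well they were Rpl13a 0.11, Rpl13 0.0881, Rps19 0.29, Rpl36 0.0715, Rplp2 0.0707, Rplp1 0.16, Rpl11 0.14, Rps10 0.20, Rpl3 0.0834, Rps2 0.27, Rpl5 -0.18. With copies summed and trends removed they were Rpl13a 0.0902, Rpl13 0.0715, Rps19 0.29, Rpl36 0.0318, Rplp2 0.0669, Rplp1 0.14, Rpl11 0.0662, Rps10 0.19, Rpl3 0.0786, Rps2 0.0956, Rpl5 -0.61. With copies summed: Rpl5 -0.39, and in the series table Rpl5 -0.32. Left-out libraries gave Rpl5 -0.14, Rpl3l -0.18 (sham 1), Rpl5 -0.0347 (nano-TiO2 1), Rpl3l -0.0902 (nano-TiO2 3) and Rpl3l -0.0583 (sham 2 and nano-TiO2 3). Among paralogs, Rpl3l over Rpl3 was -0.23 without sham 1 and -0.10 with a pseudocount of 1, Rps27l over Rps27 0.0995 without sham 3, and Rps4l over Rps4x 0.0341 without nano-TiO2 3. Over all left-out single libraries, Rpl5 ranged from -0.14 to 0.13, Rpl3l from -0.18 to 0.50 and Rps4l over Rps4x from -0.12 to 0.0341. The cause of these changes was not tested.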
